A study of Homo sapiens with 16 samples.

Results

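In the immortalised liver line THLE-2, 783 regions carried both EZH2 and H3K27me3 while lying away from the ends of every protein-coding gene. They are the peaks of EZH2 replicate 2 on chromosomes 1 to 22 and X that were under 5000 bp long, lay more than 2 kb from both annotated ends of every RefSeq GRCh38 coding gene, and overlapped a peak of H3K27me3 replicate 2 by 1 bp or more. They made up 783 of the 3637 EZH2 replicate 2 peaks on those chromosomes. The members were thus chosen by their values in EZH2 replicate 2 and H3K27me3 replicate 2, and values from these 2 libraries are given below as description. EZH2 replicate 1, H3K27me3 replicate 1 and the JARID2 libraries had no part in the choice.

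The series measured protein and histone-mark occupancy by ChIP-seq, in which chromatin fragments are pulled down with an antibody and sequenced. Its 16 samples are 8 immunoprecipitated libraries and 8 input libraries. The immunoprecipitated libraries form 4 groups of 2 replicates: EZH2, H3K27me3 and JARID2 in THLE-2, and JARID2 in HepG2, a line from a liver carcinoma. No group was treated beyond fixation, and each line was grown in culture, so neither is a liver tissue. Titles and antibody tags gave the target of each library, and the series describes the replicates as biological. All results below compare peak lists, in which each list comes from 1 library against its own input, and no test across samples was made, so the Wilson 95% intervals given in square brackets cover counting error only.

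EZH2 is the catalytic subunit of Polycomb repressive complex 2 (PRC2), which places methyl groups on lysine 27 of histone H3. The trimethylated form, H3K27me3, marks silenced chromatin, and JARID2 is an accessory subunit that helps to recruit PRC2. In mammalian cells PRC2 is best known at CpG-rich promoters of developmental regulators, which are kept silent in cells that do not use them. Binding away from the outer ends of genes can lie at internal promoters, at promoters of non-coding RNAs, or within wide marked domains, and these classes are described in turn.

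Of the 783 regions, 280 (35.8% [32.5 to 39.2]) lay inside a coding gene and 503 lay outside all of them, against 58.0% inside among all EZH2 replicate 2 peaks. The rule removed peaks at gene ends, so this difference follows in part from the choice. The median region was 991 bp long (271 to 4948 bp), held 44 tags (mapped reads counted in the peak) and had an EZH2 replicate 2 fold enrichment over input of 6.62 (3.04 to 21.51). Its H3K27me3 replicate 2 peak had a median length of 2087 bp and a median fold enrichment of 9.30. In 438 of the 783 regions the mark covered the whole EZH2 peak. The median distance to the nearest coding gene end was 31036 bp. Nearest to the 2 kb limit on the inner side were regions beside GATA4 (2068 bp), MSX2 (2096 bp) and SOX9 (2102 bp), and just beyond it peaks beside OR4D1 (1982 bp) and NEFL (1969 bp) were left out. At the length limit, regions near TMEM250 (4948 bp), SKOR2 (4923 bp) and FOXL2 (4839 bp) were kept. Peaks near SLC30A3 (5058 bp), NEUROG2 (5075 bp) and WNT5A (5113 bp) were among 64 left out for their length. The false discovery rate that the authors' caller gave was 100% at the median and 14.29% at its lowest.

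The 6 start windows below carry the sequence contrast among the regions. Each is a RefSeq window on GRCh38.p14 from 250 bases before to 50 bases after an annotated transcript start, it is printed 5′ to 3′ on the strand of the gene, and every CG dinucleotide is in capitals. KCNQ1DN is a long non-coding RNA (lncRNA) gene of an imprinted domain and its window overlaps the region with the highest EZH2 replicate 2 fold enrichment. The 2 LIN28B windows and the FGF14 window are internal starts of coding genes whose regions are described below. DAB1 and IKZF1 were added after their values were seen, as a CpG-rich and a CpG-free internal start.

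KCNQ1DN, chr11:2869783-2870082, plus strand: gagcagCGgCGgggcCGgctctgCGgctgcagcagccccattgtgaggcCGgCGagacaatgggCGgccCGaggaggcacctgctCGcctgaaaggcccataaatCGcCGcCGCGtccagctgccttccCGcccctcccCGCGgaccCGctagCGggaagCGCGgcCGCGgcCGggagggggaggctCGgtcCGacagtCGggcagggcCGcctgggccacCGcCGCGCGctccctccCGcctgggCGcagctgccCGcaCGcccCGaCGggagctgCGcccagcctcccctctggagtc
LIN28B, chr6:104940715-104941014, plus strand: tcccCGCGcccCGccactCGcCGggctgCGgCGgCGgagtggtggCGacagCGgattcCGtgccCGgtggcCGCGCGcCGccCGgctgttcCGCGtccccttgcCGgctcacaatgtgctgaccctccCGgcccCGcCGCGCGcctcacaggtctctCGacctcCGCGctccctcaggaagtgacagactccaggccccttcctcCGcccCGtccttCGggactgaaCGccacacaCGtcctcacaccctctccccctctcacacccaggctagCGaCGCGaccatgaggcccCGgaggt
LIN28B, chr6:104956857-104957156, plus strand: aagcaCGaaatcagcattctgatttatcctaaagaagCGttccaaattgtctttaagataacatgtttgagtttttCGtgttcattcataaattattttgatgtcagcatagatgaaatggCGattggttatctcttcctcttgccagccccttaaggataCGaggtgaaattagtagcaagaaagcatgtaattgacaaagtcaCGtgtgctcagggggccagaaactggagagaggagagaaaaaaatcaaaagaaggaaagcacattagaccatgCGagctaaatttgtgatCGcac
FGF14, chr13:101916896-101917195, minus strand: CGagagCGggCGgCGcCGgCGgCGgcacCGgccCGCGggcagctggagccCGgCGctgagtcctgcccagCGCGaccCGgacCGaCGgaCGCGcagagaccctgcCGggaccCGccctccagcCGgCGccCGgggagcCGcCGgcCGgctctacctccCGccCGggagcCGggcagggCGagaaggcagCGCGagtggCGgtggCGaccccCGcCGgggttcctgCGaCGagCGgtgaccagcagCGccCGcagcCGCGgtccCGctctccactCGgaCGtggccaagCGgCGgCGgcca
DAB1, chr1:57424011-57424310, minus strand: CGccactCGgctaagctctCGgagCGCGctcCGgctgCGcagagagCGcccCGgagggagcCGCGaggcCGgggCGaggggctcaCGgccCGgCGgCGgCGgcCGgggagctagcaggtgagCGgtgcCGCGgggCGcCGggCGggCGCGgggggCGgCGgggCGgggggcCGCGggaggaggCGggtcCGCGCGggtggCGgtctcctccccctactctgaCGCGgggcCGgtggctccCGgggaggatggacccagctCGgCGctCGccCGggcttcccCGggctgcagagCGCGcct
IKZF1, chr7:50318798-50319097, plus strand: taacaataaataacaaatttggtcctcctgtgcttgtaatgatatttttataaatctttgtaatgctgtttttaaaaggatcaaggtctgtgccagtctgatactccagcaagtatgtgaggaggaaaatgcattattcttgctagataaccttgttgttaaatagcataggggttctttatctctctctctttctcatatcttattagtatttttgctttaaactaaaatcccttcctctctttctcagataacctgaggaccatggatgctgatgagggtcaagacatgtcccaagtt

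The KCNQ1DN window holds 38 CpG dinucleotides and is 77.3% G or C. FGF14, with 50 CpG, and DAB1, with 48 in the richest of its 4 windows in the region, are of the same CpG-rich kind. LIN28B holds both kinds: its start at chr6:104940715-104941014 has 37 CpG and its start at chr6:104956857-104957156 has 8. IKZF1 has 0 CpG in a window of 35.3% G or C.

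MicroRNAs are short RNAs that lower the output of target messages through a seed, bases 2 to 8 of the mature strand. Overlap with a microRNA locus was seen for 4 regions, 0.511% [0.199 to 1.31], which is no more than the 0.742% of all EZH2 replicate 2 peaks. A further region on X lay beside a cluster, and others lay 1579 bp from MIR6068 and 4867 bp from MIR9-2. The mature strands below are from RefSeq (GRCh38.p14), printed 5′ to 3′ with the seed in capitals. No mature strand of MIR663A, in the region chr20:26207838-26209394, is shown.

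miR-132-3p: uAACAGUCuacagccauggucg
miR-212-3p: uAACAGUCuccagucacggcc
miR-148a-3p: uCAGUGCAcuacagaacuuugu
miR-4634: cGGCGCGAccggcccgggg
miR-92a-3p: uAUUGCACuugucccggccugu
miR-363-3p: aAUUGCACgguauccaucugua

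miR-132-3p and miR-212-3p share the seed AACAGUC, and miR-92a-3p and miR-363-3p share AUUGCAC. MIR132 and MIR212 lie together in chr17:2049054-2052539, outside coding genes and 2564 bp from HIC1, a tumour suppressor gene that encodes a transcriptional repressor. That region had a fold enrichment of 4.70 in EZH2 replicate 2 and 5.96 in H3K27me3 replicate 2. No EZH2 replicate 1 peak overlapped it, while a HepG2 JARID2 replicate 1 peak of 6.56 did. The MIR148A region, chr7:25949506-25952355, lay 199843 bp from NFE2L3. Its fold enrichment was 3.47 in EZH2 replicate 2, 5.39 in EZH2 replicate 1 and 5.81 in H3K27me3 replicate 2. Both EZH2 lists thus hold a peak at the locus of this microRNA, which is abundant in hepatocytes. Its EZH2 replicate 2 fold was near the lowest of all regions, 3.04, and no H3K27me3 replicate 1 peak overlapped it. MIR4634 lay in chr5:174750873-174752575, 19977 bp from MSX2, where the folds were 5.07 in EZH2 replicate 2 and 6.23 in replicate 1. The host transcript MIR106AHG overlapped chrX:134171815-134174161, 2203 bp from MIR92A2 and 2363 bp from MIR363, with folds of 5.78 in EZH2 replicate 2 and 5.96 in replicate 1. The region beside MIR6068 had 3.98 and 18.47 in the same order, and that beside MIR9-2 had 3.74 and 6.93.

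EZH2 replicate 1 overlapped 257 of the 783 regions, 32.8% [29.6 to 36.2], close to the 37.0% of all EZH2 replicate 2 peaks. Peaks of the same list under 5000 bp that carried H3K27me3 within 2 kb of a coding gene end were overlapped in 72.3% of 716 cases [69.0 to 75.5]. Those away from gene ends with no H3K27me3 replicate 2 peak were overlapped in 4.99% of 1502 cases [4.00 to 6.21]. The regions thus lay between both sets, and their length moved with the overlap. Among regions under 1000 bp, 22 of 393 (5.6%) had an EZH2 replicate 1 peak. That share was 33.8% of 154 regions from 1000 to under 2000 bp and 77.5% of 236 regions from 2000 to under 5000 bp. Gene-end peaks of 2000 to under 5000 bp gave 77.7%, so at that length the shares at gene ends and away from them could not be told apart. Below 1000 bp the gene-end share was 30.0% [18.1 to 45.4], above that of the regions. Requiring a caller score of at least 100 in both lists that chose the regions left 234 regions, of which 75.6% had an EZH2 replicate 1 peak.

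**Figure D1:**
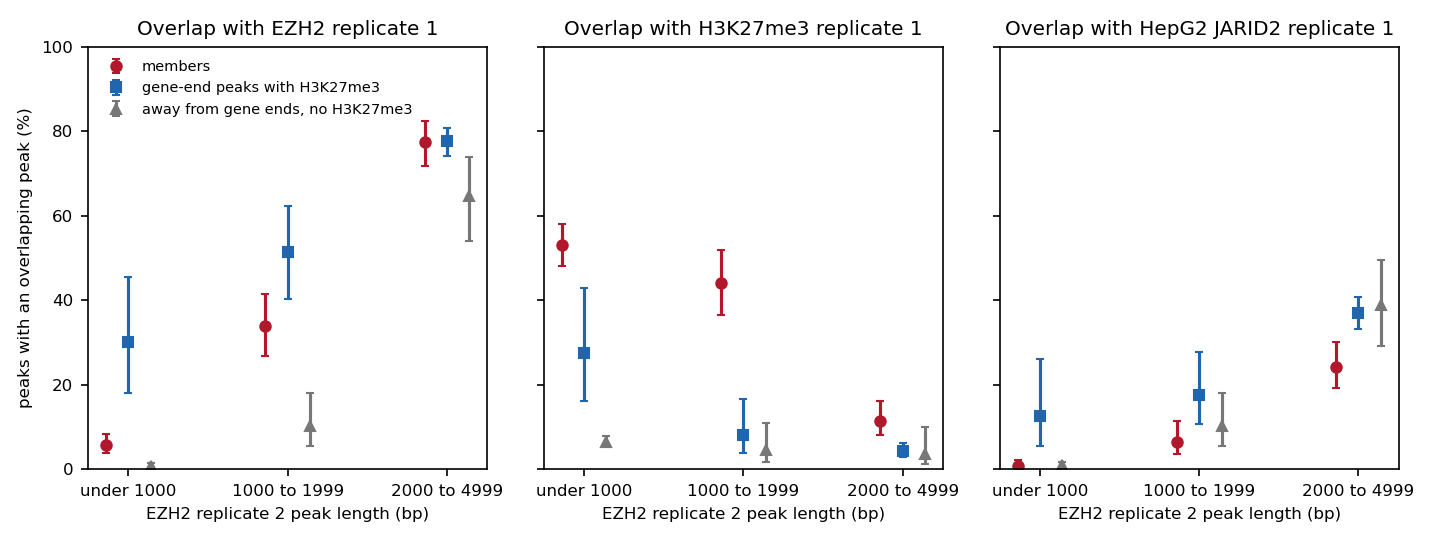
Share of EZH2 replicate 2 peaks (%, vertical axis) that overlapped a peak of EZH2 replicate 1, H3K27me3 replicate 1 or HepG2 JARID2 replicate 1, by peak length in bp (horizontal axis). Members are the 783 regions, points are shares and bars are Wilson 95% intervals. The members' share with EZH2 replicate 1 went from 5.6% to 77.5% with length, and that with H3K27me3 replicate 1 from 53.2% to 11.4%.

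H3K27me3 replicate 1 went the other way with length. It overlapped 304 of the 783 regions, 38.8% [35.5 to 42.3], against 12.4% of all EZH2 replicate 2 peaks, 6.01% of the gene-end set and 6.06% of the set without H3K27me3 in replicate 2. Regions under 1000 bp had it in 53.2% of cases, those of 1000 to under 2000 bp in 44.2%, and those of 2000 to under 5000 bp in 11.4% [7.98 to 16.1]. Regions of 2000 to under 5000 bp still exceeded gene-end peaks of that length, at 4.32% [2.96 to 6.25]. Only 39 regions had peaks of both targets in both replicates. A further 218 had EZH2 replicate 1 without H3K27me3 replicate 1, 265 had the reverse, and 261 had neither. Of the regions with EZH2 replicate 1, 15.2% had H3K27me3 replicate 1, and of those without it 50.4%. This gap was narrower at like length in 2 of 3 classes, with 45.5% against 53.6% under 1000 bp and 10.4% against 15.1% from 2000 to under 5000 bp. From 1000 to under 2000 bp it stayed wide, at 19.2% against 56.9%. The H3K27me3 lists hold 46198 and 90524 peaks in replicates 1 and 2, and their depths were 39047005 and 38091806 tags after the filter for duplicates. Of all EZH2 replicate 2 peaks, 49.4% overlapped an H3K27me3 replicate 2 peak, the value that the choice used.

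The number of regions depends on these libraries. With EZH2 replicate 1 in place of replicate 2 the same rule gave 468 regions, and with H3K27me3 replicate 1 in place of replicate 2 it gave 395. In the latter set 10.6% of regions had an EZH2 replicate 1 peak. The EZH2 lists hold 2112 and 3690 peaks from 29593777 and 32444241 tags in replicates 1 and 2. Which of the replicates is nearer to the cells' occupancy was not tested.

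Regions with an EZH2 replicate 1 peak were longer and held more tags than the other 526. Their medians were 2713 bp and 280 tags, against 797 bp and 32 tags, with scores (-10 times the log10 of the p that the authors' caller gave) of 175.6 and 62.5. Median EZH2 replicate 2 fold enrichment was similar, at 5.95 and 6.79. They also lay nearer to coding gene ends, at a median of 17434 bp against 41936 bp. Later splits of the regions by replicate 1 carry this difference in length.

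**Figure D2:**
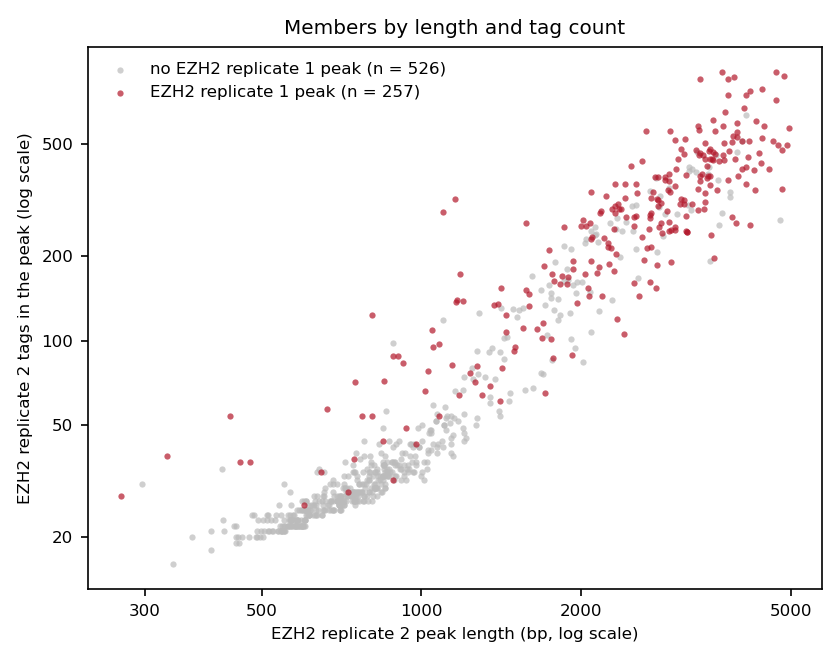
Each of the 783 members by EZH2 replicate 2 peak length (bp, log scale) and EZH2 replicate 2 tag count (log scale), coloured by overlap with an EZH2 replicate 1 peak. The 257 regions with overlap gather at the long end (median 2713 bp and 280 tags) and the 526 without it at the short end (median 797 bp and 32 tags).

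Among regions inside coding genes, those with the best worse rank of fold in the EZH2 lists were led by LOC124908048, a predicted gene that also holds the non-coding LINC01945, at 13.79 in both replicates. PRDM8 encodes a PR-domain protein of neural development. Its region chr4:80195264-80198704 had folds of 10.70 in EZH2 replicate 2, 13.20 in replicate 1 and 5.04 in H3K27me3 replicate 2. ANKS1B encodes a scaffold protein of synapses, and its region chr12:98893241-98896806 had 10.41, 12.16 and 11.45 in the same order. Both lay over an internal start window of their host, the ANKS1B one 157808 bp from the nearest coding gene end.

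SYT2, a calcium sensor of neurotransmitter release, held chr1:202643245-202644089 with folds of 9.07 and 20.57 in EZH2 replicates 2 and 1. That region counted only 44 and 50 tags in the 2 libraries, so its high fold in replicate 1 rests on few tags. FGF14 encodes a partner of voltage-gated sodium channels. Its region chr13:101915370-101918722 had 8.94 and 10.96 in EZH2, 4.91 in H3K27me3 replicate 2 and 13.41 in HepG2 JARID2 replicate 1. AFF3, a nuclear factor of the AF4 family, held a region with 9.63 and 10.53 in EZH2 and 8.14 in HepG2 JARID2 replicate 1. None of the SYT2, FGF14 and AFF3 regions had an H3K27me3 replicate 1 peak. IRS4, an adaptor of insulin signalling on X, had 12.21 and 9.54, and BTNL9, of the butyrophilin-like family, had 8.71 and 8.62.

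Outside coding genes the highest EZH2 values came from narrow peaks. The KCNQ1DN region chr11:2869888-2870217 was 330 bp long and lay 13001 bp from CDKN1C, which encodes a cell cycle inhibitor of the same imprinted domain. It had folds of 21.51 in EZH2 replicate 2, 19.66 in replicate 1 and 22.12 in H3K27me3 replicate 2, with 39, 30 and 91 tags. The FOXD4 region chr9:113454-113887, in the non-coding gene LINC01388, had 16.21, 14.80 and 22.48, and the FOXD4L1 region chr2:113503403-113503877 had 19.85, 13.40 and 6.79. FOXD4 and FOXD4L1 are forkhead factors with near-identical copies in the genome, so the placement of reads between them is uncertain although the authors used uniquely mapped reads. GOLGA8B, of a golgin family with close copies, shares that doubt, and its nearest region had EZH2 folds of 14.32 in replicate 2 and 20.31 in replicate 1. The regions nearest to LOC124905938, H3-7 and LOC107985915 had 15.99, 15.67 and 12.37 in replicate 2 and 19.00, 18.35 and 17.70 in replicate 1. They lay 33956, 404388 and 39740 bp from these genes, and the H3-7 one overlapped the pseudogene KMT2CP3. None of them had an H3K27me3 replicate 1 peak. Whether reads were placed correctly at these regions was not tested, so their high folds carry a like doubt. The region nearest to GRK3, a receptor kinase gene, lay 142860 bp from it in the non-coding gene LOC124905095 and had 14.54 in both. The region 2367 bp from ALPP, encoding placental alkaline phosphatase, had 14.86 and 12.88.

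**Figure D3:**
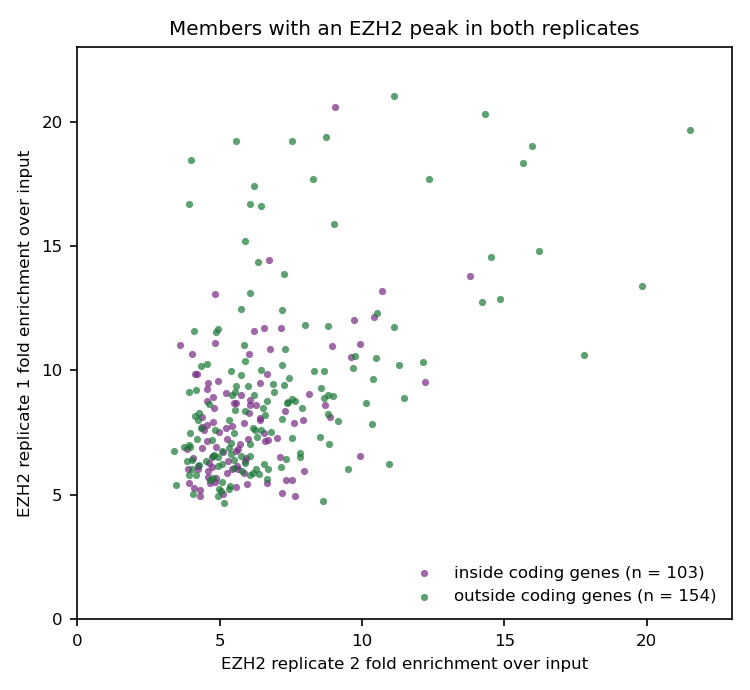
Fold enrichment over input in EZH2 replicate 2 (horizontal axis) and replicate 1 (vertical axis) for the 257 members with a peak in both, 103 inside and 154 outside coding genes. Each point is 1 region. Most lie below 10 on both axes, with KCNQ1DN farthest right at 21.51.

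The plot of fold in both lists holds 103 regions inside and 154 outside coding genes. EZH2 replicate 1 fold enrichment ranged from 4.67 to 21.05 with a median of 7.99. Replicate 1 overlapped 36.8% of the 280 inside regions [31.4 to 42.6] and 30.6% of the 503 outside ones [26.7 to 34.8], so the intervals of these shares overlap. Inside regions were also longer, with a median of 1274 bp against 927 bp. A replicate 1 peak can overlap several regions: at SLFN12L, a Schlafen family gene, 1 peak with a fold of 6.85 spanned 2 of its 3 regions.

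The 280 inside regions fell in 241 coding genes, of which 8 held 3 or more. FSTL4, of the follistatin-like family, held 4 regions with EZH2 replicate 2 folds of 5.67, 4.54, 7.25 and 8.82. In the same order, H3K27me3 replicate 2 peaks covered 100%, 100%, 0.1095% and 42.98% of the region, so the third barely touched the mark. Only the second region had an EZH2 replicate 1 peak (7.81). The neuronal gene ASTN2, the phosphatase subunit gene PPP2R2B and the proteoglycan gene SPOCK1 held 3 each, with EZH2 replicate 2 folds from 4.59 to 9.93, and none had an EZH2 replicate 1 peak. HOXA3 and LIN28B had 2 of 3 regions with EZH2 replicate 1 and SLFN12L had 3 of 3. Among 230 regions with 1 host of known strand the median position was 50.03% of the gene length from its 5′ end. It was 52.44% for peaks away from gene ends without H3K27me3 and 16.94% for all EZH2 replicate 2 peaks. The rule removed peaks at gene ends, so the mid-gene median follows in part from the choice.

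LIN28B, an RNA-binding protein that blocks maturation of let-7 microRNAs, held 3 regions with unlike patterns. The first, chr6:104940101-104942101, covers the CpG-rich start printed above and had folds of 4.44 and 7.6 in EZH2 replicates 2 and 1, 7.33 in H3K27me3 replicate 2 and no H3K27me3 replicate 1 peak. It was also in JARID2 lists of both lines, at 5.55 in THLE-2 replicate 1 and 10.83 in HepG2 replicate 1. The second, chr6:104952580-104953483, had 9.92 and 11.06 in EZH2 and 11.21 and 19.48 in H3K27me3 replicates 1 and 2. The third, chr6:104955734-104957419, covers the CpG-poor start, had 11.58 in EZH2 replicate 2 and no EZH2 replicate 1 peak, and had 14.95 and 23.04 in H3K27me3. Each of the 3 therefore had peaks in a different set of libraries.

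Of 758 regions on the chromosomes for which start windows were used, 110 (14.5% [12.2 to 17.2]) overlapped a window, against 27.7% of all EZH2 replicate 2 peaks, which include gene ends. Inside coding genes 75 of 267 regions did, 28.1%, and outside 35 of 491, 7.13%. In 69 inside regions the window was a coding start of the host itself, an alternative start away from the outer ends of the gene, and 50 of these had an EZH2 replicate 1 peak. Windows of 68 coding genes and 56 lncRNA genes were hit. Regions with EZH2 replicate 1 overlapped a window in 32.3% of 248 cases [26.7 to 38.3] and those without it in 5.88% of 510 [4.15 to 8.27]. At lengths of 2000 to under 5000 bp the same shares were 35.0% [28.4 to 42.3] and 29.2% [18.2 to 43.2], with overlapping intervals. Under 1000 bp they were 27.3% of 22 regions [13.2 to 48.2] and 0.831% of 361 [0.283 to 2.41], so there the gap stayed.

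Windows in the regions were rich in CpG. The 61 lncRNA windows had a median of 28 CpG in 300 bases and 67% G or C, against 5 CpG and 50% over all 12829 lncRNA windows. Of them, 65.6% held 20 or more CpG, against 21.2% of all lncRNA windows. The 95 coding windows had a median of 26 CpG and 69.3% G or C, against 21 CpG and 62.3% over all 22132 coding windows. Gene-end EZH2 peaks with H3K27me3 gave nearly the same medians, 25 CpG for lncRNA and 28 for coding windows. The lncRNA windows in regions with EZH2 replicate 1 had a median of 28 CpG (45 windows) and those without it 15.5 (16 windows), while coding windows had 27 and 26. In regions of 2000 to under 5000 bp the lncRNA medians were 28 (31 windows) and 24 (10 windows). IKZF1, a lymphoid transcription factor gene, shows the other kind. A region of 564 bp overlapped the upstream part of its CpG-free start window and ended short of the start itself. That region had folds of 6.27 in EZH2 replicate 2, 12.55 in H3K27me3 replicate 1 and 10.47 in H3K27me3 replicate 2. No EZH2 replicate 1 peak overlapped it. DAB1, which encodes an adaptor of reelin signalling, had 4 start windows, of 15, 20, 33 and 48 CpG, in a region of 4167 bp with 4.75 and 7.91 in EZH2 and 5.53 in H3K27me3 replicate 2, and no H3K27me3 replicate 1 peak.

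**Figure D4:**
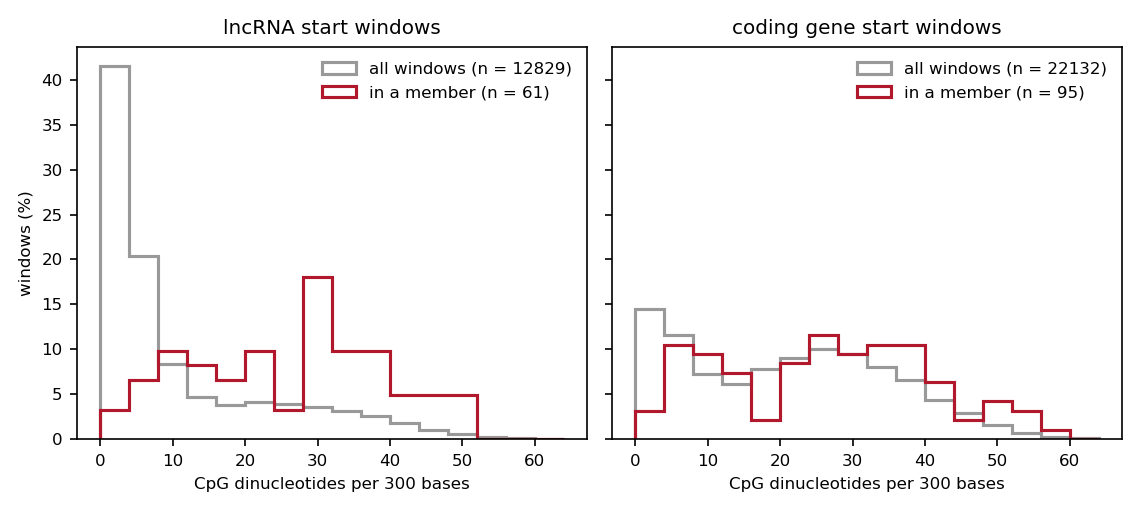
Share of start windows (%, vertical axis) by number of CpG dinucleotides per 300 bases (horizontal axis), for lncRNA and coding gene windows. Grey lines are all windows and red lines those that overlap a member. The lncRNA windows in members have a median of 28 CpG against 5 for all, and the coding windows 26 against 21.

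Non-coding genes overlapped 224 regions (28.6% [25.6 to 31.9]), close to the 26.3% of all EZH2 replicate 2 peaks. LncRNA genes accounted for 180 of them, 23% of the regions against 23.3% of all EZH2 replicate 2 peaks. Pseudogenes accounted for 27 (3.45% against 1.46%), transcribed pseudogenes for 15 (1.92% against 0.715%) and tRNA genes for 5 (0.639% against 0.44%). Regions with EZH2 replicate 1 overlapped a non-coding gene in 40.5% of cases [34.6 to 46.6], and the others in 22.8% [19.4 to 26.6]. Under 1000 bp these shares were 31.8% [16.4 to 52.7] and 22.1% [18.2 to 26.6], and from 2000 to under 5000 bp 37.7% [31.0 to 44.9] and 28.3% [18.0 to 41.6], with overlapping intervals in both classes. From 1000 to under 2000 bp they were 53.8% [40.5 to 66.7] and 22.5% [15.5 to 31.6], which do not overlap. SOX2-OT, the lncRNA around the pluripotency and neural factor gene SOX2, held 4 regions. From the farthest on one side to the other side of SOX2 their EZH2 replicate 2 folds were 8.81, 5.41, 6.70 and 6.20, and the first and last also had EZH2 replicate 1 peaks of 8.26 and 17.41. No H3K27me3 replicate 1 peak overlapped any of these 4 regions. HOTTIP, a lncRNA beside HOXA13, overlapped a region with 4.95 and 11.65 in EZH2 replicates 2 and 1.

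Genes were assigned as the host or, outside genes, as the gene with the nearest end. Developmental transcription factors outside the HOX clusters were assigned to 105 regions, 13.4% [11.2 to 16]. The 225 listed genes, chosen with earlier results of these data known, make up 1.13% of coding genes, which is a share of genes and not of peaks. Listed genes were assigned to 10.7% of all EZH2 replicate 2 peaks, 8.38% of gene-end peaks with H3K27me3 and 3.46% of peaks away from ends without it. The 105 regions belonged to 71 of the 225 genes, and 44 of the 71 had a region with an EZH2 replicate 1 peak. SOX2 had 4 regions. MSX2, DLX6, TBX5 and MEIS1, which pattern limb, face and heart, had 3 each. Outside coding genes the list took 17.3% of regions [14.2 to 20.8] and inside 6.43% [4.10 to 9.93]. Regions with EZH2 replicate 1 had a listed gene in 23.3% of cases [18.6 to 28.9] and the others in 8.56% [6.46 to 11.3]. Within length classes the intervals of these shares overlapped, with 9.09% against 4.85% under 1000 bp, 19.2% against 14.7% from 1000 to under 2000 bp and 26.2% against 22.6% from 2000 to under 5000 bp. At that length all regions together had 25.4% [20.3 to 31.3] and gene-end peaks 8.31% [6.36 to 10.8]. The gene-end set leaves out peaks of 5000 bp or longer, so this is no comparison with all gene-end peaks.

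Among the listed genes with the highest EZH2 replicate 2 folds were BARHL2, SOX5 and BARX2. BARHL2, a homeobox factor of retina and spinal cord, had chr1:90728669-90731482, 11367 bp from its end, with 10.39 and 9.66 in EZH2 replicates 2 and 1 and 24.51 in H3K27me3 replicate 2. SOX5, a regulator of cartilage and cortical neurons, had 9.93 and 6.55 in EZH2 and peaks of 10.76 and 9.70 in H3K27me3 replicates 1 and 2. BARX2, a homeobox gene, had 9.93 in EZH2 replicate 2 without a replicate 1 peak.

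HOX cluster genes, which set position along the body axis, were assigned to 8 regions of 5 genes, among them HOXA3, HOXA13, HOXC4 and HOXC13. That is 1.02% of regions [0.519 to 2.00], against 1.4% of all EZH2 replicate 2 peaks and 1.54% of the gene-end set, so the share was no higher in the regions. The HOXC13 region chr12:53925791-53930172 had 9.01 and 15.90 in EZH2 replicates 2 and 1 and 10.27 in H3K27me3 replicate 2. HOXA3 held 3 regions with 4.85, 8.68 and 3.6 in EZH2 replicate 2, and the first and last had EZH2 replicate 1 peaks of 13.06 and 11.02. The last also had the highest H3K27me3 replicate 2 fold of all 783 regions, 35.88.

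Neuronal channels, receptors and adhesion genes were assigned to 38 regions of 31 genes, 4.85% [3.56 to 6.59] against 0.901% of coding genes. That share was 6.28% among gene-end peaks with H3K27me3 and 6.72% among peaks away from ends without it, so it was no higher in the regions. The leading genes were ELAVL2 (9.93), the cadherin CDH13 (9.37), the axon guidance ligand SLIT3 (9.37) and the potassium channel partner KCNIP4 (8.47), by EZH2 replicate 2 fold. None of these 4 had an EZH2 replicate 1 peak, and the first 3 had H3K27me3 replicate 1 peaks of 13.45, 7.24 and 11.59. Over all EZH2 replicate 2 peaks the neuronal share was 5.99%. Signalling ligands and receptors were assigned to 10 regions of 7 genes, 1.28%, near the 1.35% of all EZH2 replicate 2 peaks and the 1.54% of the gene-end set. BMP7, a bone morphogenetic protein, had neighbouring regions at 8.68 and 11.41, 242384 and 240079 bp from its end. Fibroblast growth factor genes FGF14 and FGF13 had 8.94 and 7.96, and GDF6 had 7.17. No region was assigned to any of 14 PRC2 genes or 87 hepatocyte function genes, which were the 2 lists with a count of 0. All EZH2 replicate 2 peaks had such genes in only 0.110% and 0.0275% of cases, and a count of 0 in 783 allows a share of up to 0.383%, so a difference was not detectable.

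**Figure D5:**
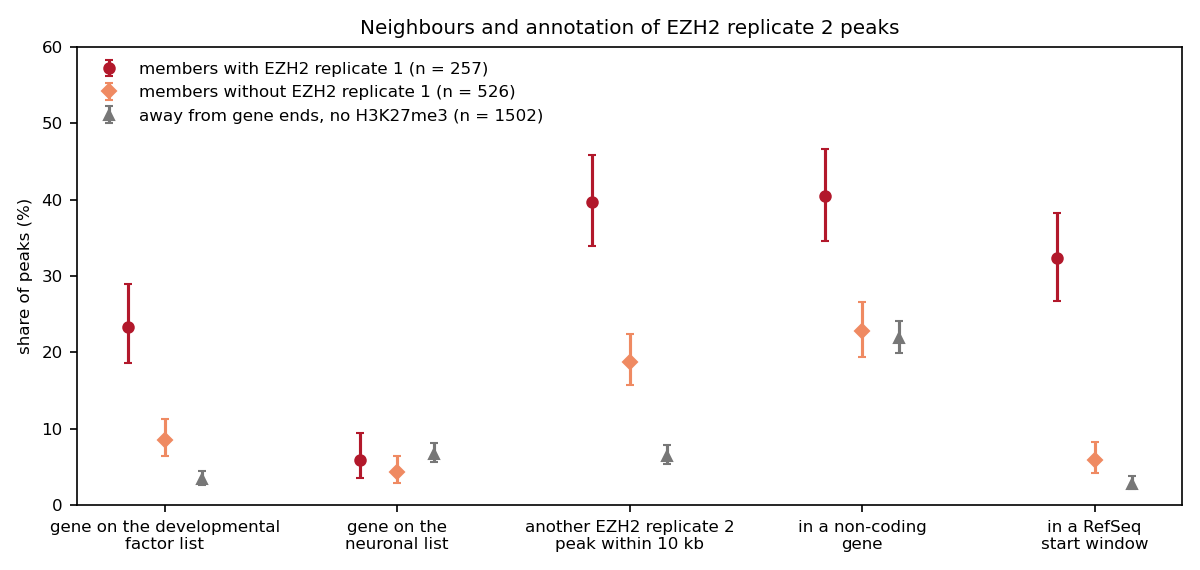
Shares of EZH2 replicate 2 peaks (%, vertical axis) by assigned gene list, neighbouring peak and overlapped annotation (horizontal axis), for members with and without an EZH2 replicate 1 peak and for peaks away from gene ends without H3K27me3. Points are shares and bars Wilson 95% intervals, and start windows rest on 248, 510 and 1462 peaks. Members with EZH2 replicate 1 are highest for the developmental list (23.3%) and start windows (32.3%), while the neuronal shares overlap.

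The regions often lay near further EZH2 peaks. Another EZH2 replicate 2 peak lay within 10 kb of 201 regions, 25.7% [22.7 to 28.8], against 17.0% of all EZH2 replicate 2 peaks, and within 50 kb of 46.1%. From 2000 to under 5000 bp the share within 10 kb was 39.0% [33.0 to 45.3] in the regions and 13.6% [11.1 to 16.6] at gene ends. Both counts come from the list that chose the regions. A gene-end EZH2 replicate 2 peak lay within 10 kb of 12.1%. The assigned gene had an EZH2 replicate 2 gene-end peak in 30.8% of regions [27.6 to 34.1], and 6.54% of coding genes have one. Among peaks away from ends without H3K27me3 the share was 16.6% [14.8 to 18.6]. It was 49.4% of all EZH2 replicate 2 peaks, which include the gene-end peaks that have such a gene by definition. By EZH2 replicate 1 the shares were 31.3% of the regions, 14.3% of peaks away from ends without H3K27me3 and 40.3% of all EZH2 replicate 2 peaks. H3K27me3 replicate 2 peaks that covered a region reached within 2 kb of a coding gene end in 41 cases, 5.24% [3.88 to 7.03], against 27.3% of all EZH2 replicate 2 peaks. EZH2 replicate 1 peaks did so in 1.53%, against 26.3% overall and 0.333% of peaks away from ends without H3K27me3. Both overall shares include the gene-end peaks that the rule removed from the regions, so the choice of regions sets these differences and nothing is read from them.

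JARID2 was called at few of the regions. THLE-2 JARID2 peaks overlapped 18 of 783 (2.30% [1.46 to 3.6]), 11 in replicate 1 and 7 in replicate 2, with no region in both lists. Over all EZH2 replicate 2 peaks the share was 4.65%, with 2.36% in replicate 1 and 2.45% in replicate 2, and in the gene-end set 7.82% [6.07 to 10.0]. Of the regions under 1000 bp, 1 of 393 had a THLE-2 JARID2 peak. Only 40 of the 716 gene-end peaks were that short, so these shares are not matched for length. The JARID2 peaks were short, with a median of 598 bp in replicate 1 and 605 bp in replicate 2, and none covered 50% or more of a region. NR2E1, an orphan nuclear receptor of neural stem cells, had the highest EZH2 replicate 2 fold among the 18: its region chr6:108155998-108158953 had 11.49 and 8.89 in EZH2 replicates 2 and 1, 9.24 in H3K27me3 replicate 2 and 7.61 in JARID2 replicate 1, the last from 18 tags. The region nearest to SMYD2, a lysine methyltransferase gene, had a JARID2 replicate 1 fold of 10.74 from 14 tags, a BMP7 region had 10.42 in replicate 2 from 16 tags, and a SOX2 region had 8.07 in replicate 1 from 14 tags. HOXC4 had 11.53 in THLE-2 replicate 1 and 6.83 in HepG2 replicate 1. It was 1 of 4 regions with a JARID2 peak in both lines.

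HepG2 JARID2 replicate 1 overlapped 70 regions, 8.94% [7.14 to 11.1], against 17.5% of all EZH2 replicate 2 peaks and 33.5% of the gene-end set. HepG2 replicate 2 overlapped 1 region, with 0.275% of all EZH2 replicate 2 peaks. The HepG2 lists hold 15738 and 4090 peaks from 7945155 and 14627883 tags. Length moved with this overlap as well: HepG2 JARID2 replicate 1 met 0.763% of regions under 1000 bp, 6.49% from 1000 to under 2000 bp and 24.2% [19.1 to 30.0] from 2000 to under 5000 bp. In that last class gene-end peaks had 36.9% [33.1 to 40.8] and peaks away from ends without H3K27me3 38.8% [29.2 to 49.5]. Among regions with EZH2 replicate 1, 51 of 257 had this peak, and among the others 19 of 526. The shares lay closer at like length. From 2000 to under 5000 bp they were 25.1% [19.4 to 31.9] and 20.8% [12 to 33.5], from 1000 to under 2000 bp 7.69% and 5.88%, and under 1000 bp 1 of 22 and 2 of 371 regions. These overlaps set JARID2 of HepG2 against EZH2 of THLE-2, the only line in which EZH2 was profiled. The HepG2 replicates also differed from each other. Cell line, target and library therefore cannot be told apart here.

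Some regions lay far from any coding gene. The farthest, chr3:163422331-163422849, was 1556049 bp from the end of SI, which encodes the intestinal enzyme sucrase-isomaltase, with 10.48 in EZH2 replicate 2 and 23 tags. The next, chr4:180057266-180060299, lay 1387314 bp from TENM3, a teneurin of neuronal wiring. It had 6.08 and 5.80 in EZH2 replicates 2 and 1, from 407 and 402 tags, 6.55 in H3K27me3 replicate 2 and 9.41 in THLE-2 JARID2 replicate 2. Of the 5 farthest regions it alone had an EZH2 replicate 1 peak, and it was the longest at 3034 bp. The others, nearest to LOC124900844, LRP1B and TENM2, had EZH2 replicate 2 folds of 8.27, 6.62 and 7.17 from 28, 20 and 44 tags.

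Chromosomes 5 and 6 held 158 regions, 20.2%, against 17.4% of all EZH2 replicate 2 peaks, 10.9% of the gene-end set and 22% of peaks away from ends without H3K27me3. With each chromosome divided into fixed bins of 10 Mb, the fullest bin, chr6:20000001-30000000, had 20 regions, of which 7 had an EZH2 replicate 1 peak and 14 an H3K27me3 replicate 1 peak. It includes the main histone gene cluster. Its neighbour, chr6:10000001-20000000, had 15 regions, 0 with EZH2 replicate 1 and 11 with H3K27me3 replicate 1. The bin chr7:20000001-30000000, which includes the HOXA genes, had 12 regions, 5 with EZH2 replicate 1 and 1 with H3K27me3 replicate 1. The next fullest bins did not share that pattern. In the same order, chr2:170000001-180000000 had 11, 1 and 8, chr5:130000001-140000000 had 11, 2 and 6, and chr1:110000001-120000000 had 12, 2 and 4. These bin counts are of the regions alone, so whether they exceed the general spread of EZH2 replicate 2 peaks was not tested. Chromosome 6 as a whole held 9.96% of regions, 8.47% of all EZH2 replicate 2 peaks and 10.5% of peaks away from ends without H3K27me3. For chromosome 7 these shares were 5.62%, 4.78% and 3.6%.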

How the data were processed

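ChIP-seq peak lists of 8 immunoprecipitated libraries were used. Tools in the submitters' processing notes are Bowtie2, cutadapt and MACS 1.4.2, on build GRCh38. Per the file headers, the authors ran MACS on unique alignments of each library with its matching input as control, kept 1 tag per position, set the p threshold to 1e-05 and scaled the larger library down. Replicates were not pooled. The authors deposited for each peak its tag count, a score (-10 times log10 p), the fold enrichment over input (a ratio) and a false discovery rate in percent. These are used within a list, and folds of different lists are set side by side only. Depth was 29593777 to 39047005 tags for EZH2 and H3K27me3 and 7945155 to 14627883 for JARID2.

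Overlaps of at least 1 bp were counted with Python 3.11.15 and pandas 2.3.3, against 19974 coding genes of the RefSeq GRCh38.p14 gene table. Where several peaks overlapped a region, the highest fold is given. RefSeq start windows numbered 34961, and regions on chromosomes without them were left out of those shares. Wilson intervals came from scipy 1.17.1, and the interval and overlap code was tested on simulated data. No test across samples was made. Named regions are the 10 inside and 10 outside genes with the best worse rank of EZH2 fold in both replicates, up to 10 with THLE-2 JARID2, hosts of 3 or more, non-coding and microRNA genes, the 5 farthest, up to 4 per gene list and those at the limits. Others are named as examples after their values were seen, among them the HOTTIP, DAB1 and IKZF1 regions. Some named items are not reported here. The members and the 6 gene lists were chosen with earlier results of these data known.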

Additional observations from a re-analysis of the deposited data

Results flagged for a closer look

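Signal outside the chromosomes used was seen in EZH2 replicate 2. Of 50 peaks on unplaced or alternate scaffolds, 11 overlapped an H3K27me3 replicate 2 peak and 7 of these also an EZH2 replicate 1 peak. They lay on 5 scaffolds, have no control library to set them against beyond their own input, and entered none of the shares above.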

How the results depend on the processing

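Of 50 alternative values, 24 stayed within 1.5 times the count or within the interval of the share, and 26 did not. The number of regions was 234 with a score of at least 100, and 395 to 468 with either replicate 2 replaced by its replicate 1. The share inside coding genes was 40.6% at that score, 31.9% to 37.2% with a replicate replaced and 40.1% among regions with an EZH2 replicate 1 peak (a setting added after seeing the data). The EZH2 replicate 1 share was 75.6% at that score, 29.0% and 27.4% beyond 5 and 10 kb from gene ends, 37.1% with no length maximum, 26.0% with the ends of genes of any class and 10.6% with H3K27me3 replicate 1 as the mark. The H3K27me3 replicate 1 share was 16.2% at that score, 43.1% beyond 10 kb, 29.1% with EZH2 replicate 1 as the list and 15.2% among regions with an EZH2 replicate 1 peak. The THLE-2 JARID2 share was 0.894% to 1.4% with 1 library left out, 0% where at least 50% of a region had to be covered and 4.28% among regions with EZH2 replicate 1. H3K27me3 peaks reached within 5 kb of a gene end in 14.7%, and within 2 kb in 9.73% of regions with EZH2 replicate 1. Another EZH2 peak lay within 50 kb of 46.1%, and within 10 kb of 39.7% of regions with EZH2 replicate 1, where the developmental list took 23.3% and start windows 32.3%. Wider limits or fewer libraries change these values by construction, and the cause of the others was not tested.

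No paired analysis was possible because no result comes from a test across samples. A region without a deposited peak in a list is one where none was called there. The H3K27me3 lists differ in length at like depth, and the JARID2 libraries are the shallowest.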
